A study of Mus musculus with 12 samples.

Results

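Transcripts of all genes were compared between Eos+ and Eos- regulatory T cells (Tregs) of the mouse thymus, in 4 libraries of each population, which are 8 of the 12 libraries of the series. As the labels' protocols describe, the cells were thymic and came from mice that carried both CD4-Cre and a Foxp3-GFP reporter, and no age, strain or further allele is given in the labels. Eos+ Tregs were CD4+, Foxp3+, Ccr6+ and Cxcr4+ cells, and Eos- Tregs were CD4+, Foxp3+, Ccr6- and Cxcr4- cells. The other 4 libraries, of Foxp3- conventional T cells (Tconv), entered the fit and are used here for the level of a gene outside Tregs. The labels list Eos+ and Eos- as genotypes, but the sort used Ccr6 and Cxcr4, so the groups are described here as sorted populations. The series title names recirculating thymic Tregs as its subject. Each Eos+ library was paired with the Eos- library of the same Eos number.

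Tregs are CD4 T cells that restrain immune responses and depend on the transcription factor Foxp3. Eos, encoded by Ikzf4, is a zinc finger protein of the Ikaros family that can bind Foxp3 and acts mainly as a repressor. The thymus makes new Tregs and also holds mature Tregs that have returned from the periphery. Ccr6 is a chemokine receptor that is more common on experienced than on newly made Tregs, and Cxcr4 binds the chemokine Cxcl12 in thymus and bone marrow.

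Levels are CPM, counts scaled to a common library total with TMM factors. Values stand in the order of replicates 1 to 4, Eos+ Tregs first, then Eos- Tregs, and a library is named by its population and replicate (Eos- library 2). Differences are log2 differences of Eos+ minus Eos- Tregs from edgeR with the Eos number as a block, each with a standard error (SE). The SE was derived as the size of the difference over the square root of its F statistic, and is approximate where counts are near 0. A gene was called where its p, adjusted by the Benjamini-Hochberg method over 15361 tested genes, was under 0.05. Library totals were 31.4 to 35.0 M expected counts in Eos+ Tregs and 23.9 to 35.6 M in Eos- Tregs. Positions are those of the GENCODE M21 annotation on mm10. The samples are bulk RNA, so fewer cells of a type and less RNA per cell cannot be told apart. Their number, and the spread between libraries that the labels do not tie to separate animals, set the precision of every p-value.

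The libraries numbered 1 stood apart. Foxp3 was 55.0, 485, 819.6 and 655 CPM against 53.3, 653, 862 and 760.1 CPM. In both groups it was lowest in library 1, and the groups overlapped. Il2ra, the alpha chain of the receptor for interleukin-2, was 538, 402, 642 and 602 CPM against 496, 355, 553 and 554 CPM, so library 1 lay within the range of the others for this Treg gene. The beta-globin gene Hbb-bs was 165, 0.0574, 0.0583 and 13.2 CPM against 149, 0, 0 and 7.09 CPM. Ctse, a cathepsin protease, was 412, 21.9, 24.9 and 16.6 CPM against 421, 34.2, 31.8 and 30.4 CPM. Both were highest in the libraries numbered 1 of either population. Without the 3 libraries numbered 1, 1783 genes were called higher and 1297 lower, against 2012 and 1486 with them, and every gene described below as higher or lower kept its direction and its call. On the first principal component of the 8 Treg libraries (41.8% of variance), Eos- library 1 lay at 21.9 and the other Eos- Treg libraries at 63.5 to 83.1.

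**Figure D1:**
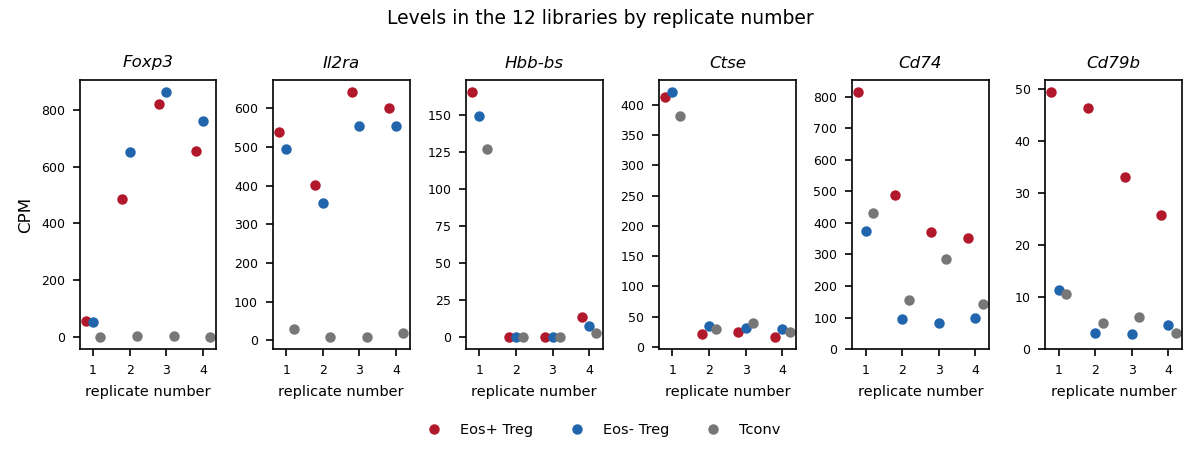
Level of 6 genes in the 12 libraries (vertical axes, CPM; horizontal axes, replicate number; colours, the 3 populations). Foxp3 is lower and Hbb-bs and Ctse are higher in the libraries numbered 1 of both Treg groups, while Il2ra is not.

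Levels of 8 marker genes were read beside the labels. Nrp1, Il1r2, Satb1 and Lef1 are not named in the sort, so their levels do not check it. Ikzf4 was 319, 334, 312 and 292 CPM against 155, 165, 181 and 181 CPM, 1.84-fold higher in Eos+ Tregs, and no library of one group reached the other (exact two-sided permutation p = 0.0286, the smallest that 4 against 4 libraries allow). Eos- Tregs therefore still held Ikzf4 transcript, above the 22.7 to 27.4 CPM of Tconv. Ccr6, a gate of the sort and so not a finding, was 227, 249, 263 and 247 CPM against 13.002, 19.7, 10.4 and 14.6 CPM. Cxcr4, the other gate, was 52.9, 25.2, 40.4 and 38.0 CPM against 22.7, 23.2, 42.3 and 26.8 CPM, with overlapping groups (exact two-sided permutation p = 0.257). The permutation tests took the libraries as unpaired. With the pairs kept, exact two-sided sign flips gave p = 0.125 for Ikzf4, the smallest they can give, and p = 0.25 for Cxcr4. Nrp1, a semaphorin and VEGF coreceptor, was 704, 705, 613 and 605 CPM against 154, 106, 134 and 129 CPM, and Il1r2, the decoy receptor of interleukin-1, was 233, 373, 293 and 302 CPM against 8.64, 4.59, 1.59 and 10.9 CPM. Both were higher in every Eos+ library than in any Eos- library. Satb1, a chromatin organiser of thymocytes, was 474, 331, 345 and 509 CPM against 1756, 1468, 1273 and 1372 CPM, and Lef1, a transcription factor of immature and naive T cells, was 264, 283, 325 and 342 CPM against 778, 665, 667 and 563 CPM. Both were lower in every Eos+ library. Foxp3, Satb1 and Lef1 share exon positions with other expressed genes, as do Atp1b1, Pde2a, Nr1d1, Nr2f6, Cbx7, Rnf167 and Penk below. The libraries do not record strand, so the values of these genes are uncertain.

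Of 15361 genes tested, 3498 were called (22.8%), 2012 of them higher in Eos+ Tregs (13.1%) and 1486 lower (9.67%). Among the 12391 protein-coding genes tested, 15.5% were higher and 10.8% lower. The 4 Eos+ and 4 Eos- libraries did not overlap in 20% of all genes tested, and all 4 pairs differed in the same direction in 43%. Among the called genes 69.7% did not overlap. Genes higher in Eos+ Tregs changed more than genes lower: the median size of the log2 difference was 1.05 among the higher and 0.521 among the lower. More than 4-fold changes were called in 602 higher and 71 lower genes. The 602 had a median level of 5.69 CPM in Eos+ Tregs, 0.644 CPM in Eos- Tregs and 0.586 CPM in Tconv. Without adjustment, 5414 genes had a p under 0.05. Of 129 T cell receptor variable segment genes tested, 0 were higher and 9 lower.

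**Figure D2:**
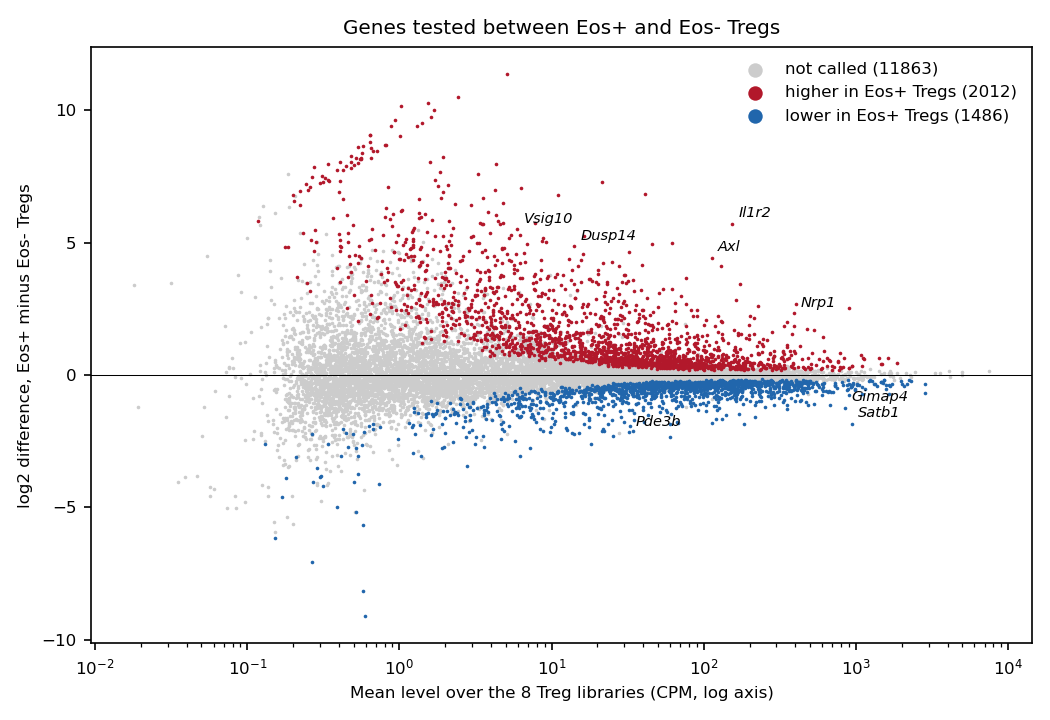
Each of the 15361 genes tested by its mean level over the 8 Treg libraries (horizontal, CPM, log axis) and its log2 difference, Eos+ minus Eos- Tregs (vertical); colours mark the 2012 genes called higher and the 1486 called lower. Large differences are mostly upward.

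Among the largest increases were genes of varied function. Vsig10 (chromosome 5, 117319083 to 117355005, plus strand), a membrane protein with immunoglobulin domains, was 10.5, 10.5, 12.4 and 13.3 CPM against 0.415, 0.171, 0.104 and 0.373 CPM (5.51 ± 0.48, adjusted p = 4.72e-05). Every Eos+ library was above 10 CPM and every Eos- library under 0.5 CPM. Galnt14, an enzyme that starts mucin-type sugar chains on proteins, was 23.3, 17.9, 12.4 and 14.9 CPM against 0.789, 0.655, 0.311 and 0.144 CPM (5.19 ± 0.82, adjusted p = 0.00136). Dusp14 (chromosome 11, 84048041 to 84069261, minus strand), a phosphatase that acts on mitogen-activated kinase signalling, was 25.1, 34.3, 23.3 and 26.2 CPM against 1.74, 1.11, 0.380 and 0.775 CPM, 29.2-fold higher (4.87 ± 0.45, adjusted p = 6.60e-05). Both were near 0 in Tconv, at 0 to 0.394 and 0.0263 to 0.342 CPM. Ccn4, a matrix-associated secreted protein, was 11.6, 9.21, 10.9 and 15.8 CPM against 0, 0.684, 0.138 and 0.919 CPM (5.28 ± 0.81, adjusted p = 0.00123). Its difference was 4.55 without Eos+ library 1 and 5.90 without Eos+ library 4. Ttn, the giant protein of the muscle sarcomere, was 181, 102, 78.2 and 111 CPM against 12.3, 0.0855, 1.00 and 7.44 CPM. The lowest Eos+ value was above the highest Eos- value, and the Eos- libraries ran from 0.0855 to 12.3 CPM. The Ttn difference was 4.98 ± 0.78, adjusted p = 0.00133, and it was 5.66 without Eos- library 1, 4.36 without Eos- library 2 and 4.37 without Eos+ library 2.

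The largest decreases were smaller and held several receptors and adhesion genes. Tspan9 (chromosome 6, 127961396 to 128143594, minus strand), a tetraspanin of the plasma membrane, was 9.97, 2.38, 4.02 and 5.95 CPM against 25.3, 32.4, 18.1 and 22.0 CPM, 4.58-fold lower (-2.19 ± 0.37, adjusted p = 0.00188). Acvrl1, a receptor of the BMP branch of TGF-beta signalling, was 6.27, 0.804, 5.66 and 7.45 CPM against 34.4, 21.4, 18.8 and 13.6 CPM (-2.18 ± 0.44, adjusted p = 0.00577). Every Eos+ library was below every Eos- library for both, and Tconv was higher still, at 41.0 to 68.4 and 124 to 132 CPM. Itga9, an integrin alpha chain, was 2.04, 3.44, 6.30 and 2.49 CPM against 8.89, 15.3, 29.1 and 10.7 CPM (-2.15 ± 0.32, adjusted p = 0.00109), and Ntn4, a secreted netrin, was 2.32, 4.25, 6.15 and 8.59 CPM against 18.6, 19.5, 18.7 and 23.3 CPM (-2.07 ± 0.29, adjusted p = 0.000768). These last genes were low in Tconv as well, at 0.588 to 2.697 and 0.131 to 0.710 CPM, so their level was highest in Eos- Tregs. Vipr1, a receptor of vasoactive intestinal peptide, was 1.84 to 6.11 CPM against 7.27 to 20.5 CPM, Art4, an ADP-ribosyltransferase family protein, 5.36 to 12.0 CPM against 28.7 to 45.8 CPM, Pyroxd2, a mitochondrial oxidoreductase family protein, 2.10 to 9.18 CPM against 16.0 to 27.8 CPM, and Cldn10, a claudin of tight junctions, 1.63 to 5.22 CPM against 10.3 to 21.7 CPM. The adjusted p of these 4 genes, all lower, was 0.00144, 0.000354, 0.000221 and 0.00148.

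Functional groups were described with 31 gene lists, and other cell types with 9 lists of markers. Of the 1883 genes listed, 375 were not in the fit. Counts are over the members tested, and a gene can pass that filter through the group where it is high. Each list count below stands beside the 15.5% higher and 10.8% lower of all protein-coding genes tested. Genes named from a list were mostly its called members with the largest changes, so groups that do not overlap are common among them by choice. The median log2 difference over all 15361 genes was 0.0065. In the list of TNF receptors and ligands 21 of 34 tested members were higher and 4 lower (61.8% and 11.8%, median 0.53), and in the Gimap list 0 of 8 were higher and 6 lower. Of 75 chromatin modifiers 4 were higher and 24 lower. Tested against a 1.5-fold change, 9 members of the TNF list were higher and 0 lower, and 3 of the Gimap list were lower. Counts of other lists fell too. This test left 4 higher and 0 lower ubiquitin ligases and SOCS genes, 5 and 0 redox genes, and 8 and 0 lipid enzymes. It left 4 and 1 purine genes, 11 and 1 solute carriers, and 4 and 2 neuronal and vesicle genes. Over all genes it called 748 higher and 192 lower.

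**Figure D3:**
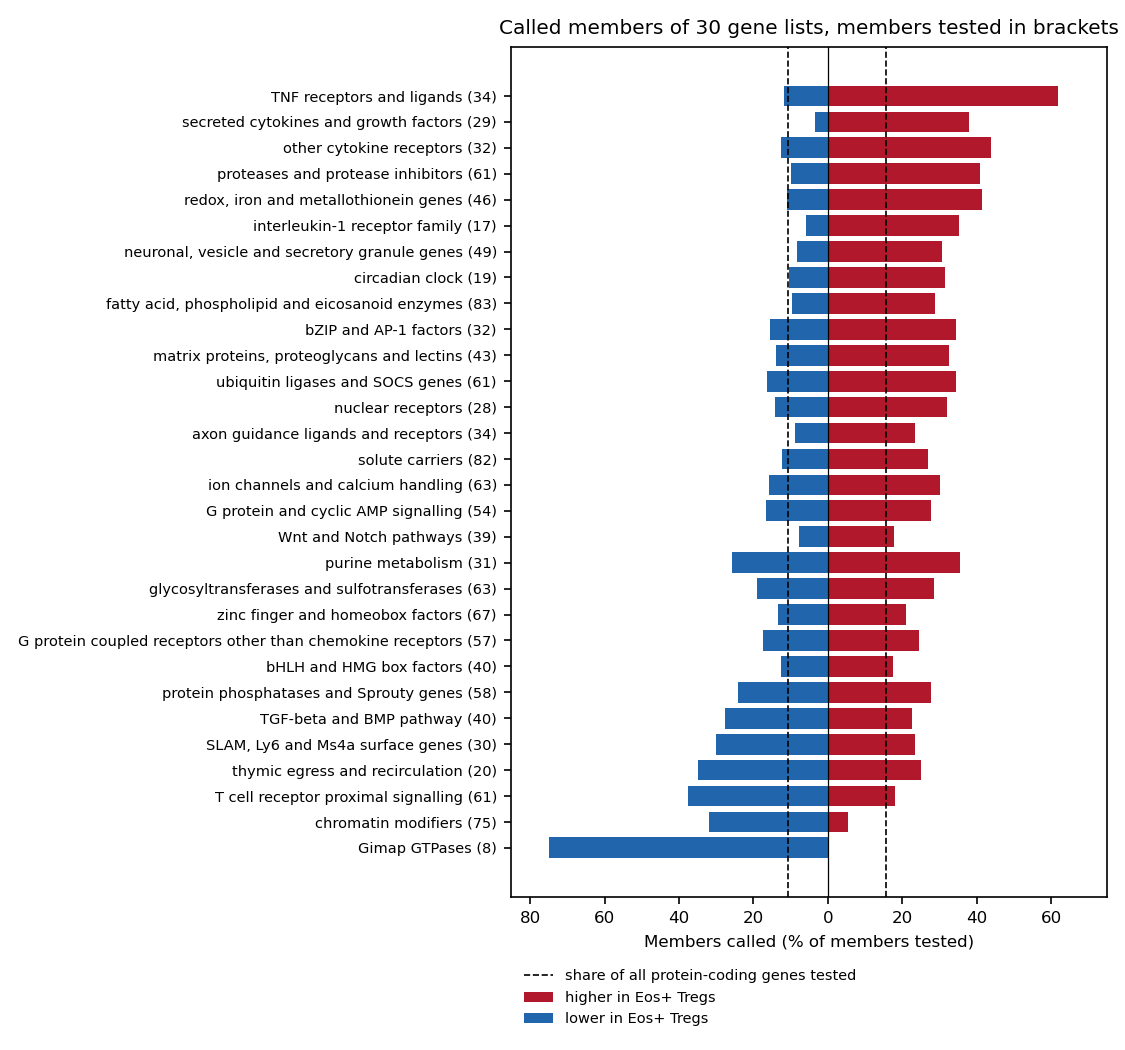
Share of tested members called higher (right) and lower (left) in 30 of the 31 gene lists, 1 not being reported here (horizontal axis, % of members tested, whose number is in brackets). Dashed lines mark the shares of all protein-coding genes tested, 15.5% higher and 10.8% lower; among the 30 shown, TNF receptors and ligands lie farthest to the right and Gimap GTPases farthest to the left.

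Among receptors and ligands of the TNF family, which carry costimulation, survival and death signals, several receptors and ligands were more than 8-fold higher. Cd40, known as the receptor on B cells and antigen-presenting cells for CD40 ligand, was 12.8, 9.19, 7.81 and 6.57 CPM against 0.748, 0.199, 0.138 and 0.345 CPM, 28.1-fold higher (4.81 ± 0.49, adjusted p = 0.000113). Its Tconv level was 0.426 to 1.93 CPM. Tnfrsf8 (chromosome 4, 145267137 to 145315164, minus strand), which encodes CD30, was 39.4, 24.6, 35.2 and 22.8 CPM against 2.20, 0.826, 0.622 and 2.15 CPM (4.57 ± 0.55, adjusted p = 0.000282, and 3.97 without Eos+ library 3). Tnfsf14, the ligand LIGHT, was 16.2, 13.8, 7.14 and 3.20 CPM against 2.7001, 0.0570, 0.0691 and 0.373 CPM (4.32 ± 0.86, adjusted p = 0.00515). The Eos+ libraries of Tnfsf14 ran over a wide range, but the lowest of them was still above the highest Eos- library. Its difference was 5.61 without Eos- library 1, 3.67 without Eos- library 2, 3.71 without Eos+ library 2, and 3.70 with no block. The members called lower changed less. Tnfrsf1a, the main receptor of TNF itself, was 14.01 to 18.0 CPM against 19.1 to 27.2 CPM (-0.55 ± 0.10, adjusted p = 0.00362), and Relt, another receptor of the family, 46.8 to 57.5 CPM against 65.2 to 79.8 CPM (-0.48 ± 0.07, adjusted p = 0.000819). Cd40lg, the ligand of CD40, moved against its receptor, at 23.6, 12.0, 14.8 and 8.77 CPM against 49.7, 35.3, 20.4 and 22.9 CPM (-1.11 ± 0.26, adjusted p = 0.0112), with 99.4 to 126 CPM in Tconv.

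The windows from 250 bases before to 50 bases after the RefSeq start of Tnfrsf8 and Tnfsf14 (GRCm38.p6) each held 1 AP-1 motif, TGANTCA, on either strand. They are shown because both genes rose and their windows share this motif. Capitals mark the AP-1 motif at position -132 of the Tnfrsf8 window and -160 of the Tnfsf14 window, counted from the start, and in Tnfsf14 also a RUNX motif, TGTGGT or its complement, at position 37. The windows are chr4:145315115-145315414 (minus strand) and chr17:57194132-57194431 (minus strand), written 5′ to 3′ on the strand of the gene.
Tnfrsf8: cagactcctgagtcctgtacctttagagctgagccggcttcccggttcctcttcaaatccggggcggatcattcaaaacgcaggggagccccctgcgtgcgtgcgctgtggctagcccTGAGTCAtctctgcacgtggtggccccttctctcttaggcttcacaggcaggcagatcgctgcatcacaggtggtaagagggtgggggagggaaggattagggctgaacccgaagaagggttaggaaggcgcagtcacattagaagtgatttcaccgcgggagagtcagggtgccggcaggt
Tnfsf14: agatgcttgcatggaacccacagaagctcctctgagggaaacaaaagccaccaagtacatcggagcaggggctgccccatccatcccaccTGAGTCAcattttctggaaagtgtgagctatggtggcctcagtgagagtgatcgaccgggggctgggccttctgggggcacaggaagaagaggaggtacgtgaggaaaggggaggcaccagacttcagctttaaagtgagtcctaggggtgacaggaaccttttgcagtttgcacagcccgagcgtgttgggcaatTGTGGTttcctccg
Of the 10375 tested genes with a window in the RefSeq table, 4.74% held the AP-1 motif, 6.12% of the 1503 called higher and 4.5% of the 1134 called lower. The intervals of these last shares (95%, Wilson) were 5.02% to 7.45% and 3.44% to 5.86%. The Ikaros core TGGGAA was in 22.7% of all windows, 22.3% of those of higher and 20.5% of those of lower genes. A motif match is a description of the letters and does not show a bound site.

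Cytokine receptors were more often higher than lower, as were all protein-coding genes tested (15.5% and 10.8%). Of 17 tested members of the interleukin-1 receptor family 6 were higher and 1 lower (35.3% and 5.88%). Of 32 other cytokine receptors 14 were higher and 4 lower (43.8% and 12.5%), the share lower being near that of all protein-coding genes. The 14 fell to 8 without Eos- library 2 or 3 and to 9 without Eos+ library 2, 3 or 4. Il9r (chromosome 11, 32187541 to 32200279, minus strand), the receptor of interleukin-9, was 23.8, 23.7, 26.7 and 9.62 CPM against 4.65, 1.23, 1.42 and 1.32 CPM, 10.4-fold higher (3.38 ± 0.71, adjusted p = 0.00696). Eos+ library 4 was lowest in its group and still above every Eos- library. Il12rb1, a chain shared by the interleukin-12 and interleukin-23 receptors, was 47.6, 25.1, 40.7 and 26.6 CPM against 18.3, 10.5, 10.3 and 11.9 CPM (1.46 ± 0.17, adjusted p = 0.000219). Il1rl1, which encodes the interleukin-33 receptor ST2, was 53.1, 24.0, 47.7 and 22.3 CPM against 11.0, 0, 2.25 and 1.49 CPM (3.95 ± 0.88, adjusted p = 0.0094), and Il18rap, the accessory chain of the interleukin-18 receptor, was 34.7, 20.3, 27.4 and 20.4 CPM against 9.43, 1.34, 1.24 and 2.18 CPM (3.21 ± 0.48, adjusted p = 0.00101). Library 1 was the highest Eos- library for both. Without Eos- library 1 their differences were 4.91 and 3.96, and that of Il1rl1 was 3.27 without Eos- library 2 and 3.34 with no block. Of the members that were not higher, Il17ra, a chain used by several interleukin-17 family receptors, was 258, 296, 351 and 303 CPM against 452, 508, 598 and 492 CPM (-0.76 ± 0.08, adjusted p = 0.000125). Ifngr2, a chain of the interferon-gamma receptor, was 60.2 to 84.7 CPM against 104 to 136 CPM (-0.69 ± 0.11, adjusted p = 0.00141), and Il6st, the gp130 chain of the interleukin-6 receptor, was 137, 252, 243 and 184 CPM against 237, 337, 378 and 285 CPM (-0.62 ± 0.10, adjusted p = 0.00175). Il2rb and Il2rg, chains of the interleukin-2 receptor, did not pass, at 1128 to 1680.4 CPM against 981 to 1602 CPM and 1684 to 1997 CPM against 1849 to 2284 CPM.

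Of 29 secreted cytokines and growth factors tested, 11 were higher and 1 lower. Csf1, the growth factor of macrophages, was 35.5, 44.0, 45.3 and 29.8 CPM against 10.8, 5.27, 2.97 and 5.40 CPM, 6.76-fold higher (2.76 ± 0.38, adjusted p = 0.00067). Pdgfb, a platelet-derived growth factor chain, was 34.8, 40.0, 30.9 and 26.0 CPM against 3.95, 5.50, 1.21 and 1.06 CPM (3.64 ± 0.50, adjusted p = 0.000606, and 4.27 without Eos- library 2). Neither gene overlapped between the groups. Vegfc, a growth factor of lymphatic vessels, was 7.81, 7.87, 7.00 and 3.61 CPM against 0, 0.142, 0 and 0 CPM, with 5 counts in all in the 4 Eos- libraries and 0 CPM in Tconv. Its fitted log2 difference of 7.60 (adjusted p = 0.00106) was 10.55 without Eos- library 2, which held all 5 counts and without which the fitted value is no bound, 9.61 without Eos+ library 2 and 8.55 with DESeq2. Bmp7, a bone morphogenetic protein, was 48.1, 40.8, 38.3 and 29.9 CPM against 11.9, 8.03, 3.73 and 9.48 CPM (2.33 ± 0.24, adjusted p = 0.00011). Tgfbr2, the ligand-binding TGF-beta receptor, was not called, at 225 to 313 CPM against 249.9 to 314 CPM (adjusted p = 0.537). Of the 40 tested genes of the TGF-beta and BMP pathway 9 were higher and 11 lower. Of 39 genes of the Wnt and Notch pathways 7 were higher and 3 lower (5 lower with DESeq2 or limma-voom). These shares, 17.9% and 7.69%, were near the 15.5% and 10.8% of all protein-coding genes tested. Rnf43 and Znrf3, ubiquitin ligases that remove Wnt receptors from the cell surface, differed in direction. Rnf43 was 46.4, 30.3, 28.6 and 16.7 CPM against 16.0, 10.1, 6.81 and 9.02 CPM (1.53 ± 0.28, adjusted p = 0.00317) and Znrf3 was 33.4, 24.5, 27.7 and 25.1 CPM against 48.1, 46.0, 55.1 and 37.6 CPM (-0.75 ± 0.11, adjusted p = 0.000825). Of 34 tested genes of axon guidance, many of which also act on immune cells, 8 were higher and 3 lower (5 lower with the 8 Treg libraries alone or DESeq2 and 6 with limma-voom). Sema4f, a semaphorin, was higher, at 9.91 to 24.4 CPM against 4.46 to 9.60 CPM (1.46 ± 0.28, adjusted p = 0.00396). Sema4a was lower, at 36.4, 27.1, 34.4 and 22.0 CPM against 168, 105, 80.7 and 63.4 CPM (-1.76 ± 0.20, adjusted p = 0.000204), with 299 to 351 CPM in Tconv, and Ephb6, a kinase-inactive ephrin receptor, was lower at 87.3 to 123 CPM against 137 to 169.7 CPM (-0.58 ± 0.11, adjusted p = 0.00302).

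Cyclic AMP is a second messenger that dampens T cell activation. Of 54 genes of G protein and cyclic AMP signalling tested, 15 were higher and 9 lower, and of 57 G protein coupled receptors other than chemokine receptors 14 were higher and 10 lower. Gna15, a G protein alpha subunit of blood cells, was 25.5, 24.1, 30.1 and 11.6 CPM against 6.81, 2.91, 3.70 and 2.64 CPM (2.56 ± 0.31, adjusted p = 0.000309). No Eos- library of Gna15 reached the lowest Eos+ library. Phosphodiesterases, which break down cyclic nucleotides, parted. Pde2a was 61.4, 97.9, 94.9 and 103 CPM against 47.3, 16.4, 21.6 and 19.0 CPM (1.90 ± 0.38, adjusted p = 0.00518) and Pde3b was 13.7, 12.5, 5.92 and 14.8 CPM against 66.5, 76.4, 36.1 and 33.9 CPM (-2.16 ± 0.28, adjusted p = 0.000434). Adcy6, which makes cyclic AMP, was 10.1, 10.4, 13.99 and 14.96 CPM against 22.9, 30.2, 36.6 and 30.3 CPM (-1.27 ± 0.14, adjusted p = 0.000157). Ptger3, a prostaglandin E2 receptor, was lower at 4.62 to 9.71 CPM against 14.04 to 26.7 CPM (-1.45 ± 0.31, adjusted p = 0.008).

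Genes that handle purines changed in both directions. Nt5e (chromosome 9, 88327197 to 88372092, plus strand), which encodes CD73, the enzyme that makes adenosine from AMP outside the cell, was 480.2, 479, 423 and 300.4 CPM against 159, 123, 132 and 138 CPM, 3.07-fold higher (1.62 ± 0.19, adjusted p = 0.000283). Entpd1, which encodes CD39 and supplies that AMP from ATP, was 40.5, 22.9, 37.4 and 32.5 CPM against 16.4, 5.18, 11.3 and 13.7 CPM (1.60 ± 0.17, adjusted p = 0.000153). Xdh, the xanthine oxidoreductase, was 42.9 to 65.2 CPM against 24.0 to 31.1 CPM (1.01 ± 0.14, adjusted p = 0.000776). In all 3 genes the groups did not overlap. Ampd1, which deaminates AMP, was lower at 1.44, 1.44, 2.89 and 1.41 CPM against 17.8, 14.4, 12.0 and 5.92 CPM (-2.77 ± 0.28, adjusted p = 0.000115), as was Enpp4, an ectonucleotidase, at 11.3 to 14.7 CPM against 19.4 to 40.8 CPM (-0.99 ± 0.18, adjusted p = 0.0028). In the whole list 11 of 31 tested members were higher and 8 lower. With no block the counts were 6 and 5, and 7 were higher without Eos+ library 3, without Eos- library 3 or without the libraries numbered 1.

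Of 63 ion channel and calcium handling genes tested, 19 were higher and 10 lower (6 lower with no block). Atp2b4, a calcium pump of the plasma membrane, was 21.2, 7.15, 7.81 and 11.4 CPM against 3.20, 0.798, 1.07 and 1.90 CPM (2.87 ± 0.45, adjusted p = 0.00133), and Kcnk6, a potassium leak channel, was 6.07 to 12.7 CPM against 0.588 to 2.91 CPM (2.69 ± 0.58, adjusted p = 0.00787). Atp1b1, the beta subunit of the sodium pump, was 22.1, 40.7, 44.0 and 52.1 CPM against 90.1, 90.3, 84.1 and 104 CPM (-1.24 ± 0.18, adjusted p = 0.00101), and Trpm1, a cation channel best known from the retina and melanocytes, was 17.6, 34.5, 31.6 and 27.8 CPM against 37.8, 70.1, 58.3 and 67.3 CPM (-1.06 ± 0.16, adjusted p = 0.00126). Both were lower in every Eos+ library, and Trpm1 was only 9.94 to 17.0 CPM in Tconv.

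Signalling components below the T cell receptor were more often lower than higher. Of 61 tested members 23 were lower (37.7%) and 11 higher (18%), with a median log2 difference of -0.18. The share higher was near the 15.5% of all protein-coding genes tested. The summed level of the 61 genes was 15755 to 16236 CPM in Eos+ Tregs and 18448 to 19313 CPM in Eos- Tregs. The number lower ran from 19 to 22 when 1 library was left out and was 19 with no block, and 4 were lower and 2 higher by a test against a 1.5-fold change. The number higher was less stable, at 5 with no block, at 5 to 7 without any one library other than Eos+ library 4, which left 8, and at 7 without the libraries numbered 1. Rasgrp2 (chromosome 19, 6399340 to 6415216, plus strand), an exchange factor that activates the small GTPase Rap1 and with it integrins, was 57.7, 54.4, 53.3 and 89.1 CPM against 192, 202, 183 and 220.0 CPM, 3.17-fold lower (-1.67 ± 0.16, adjusted p = 7.11e-05). Txk, a kinase of the Tec family, was 45.5, 68.1, 85.9 and 98.7 CPM against 194, 208, 226 and 196 CPM (-1.49 ± 0.18, adjusted p = 0.000283). Pag1, an adaptor that recruits the inhibitory kinase Csk, was 11.8, 13.6, 16.3 and 21.6 CPM against 35.3, 33.3, 33.0 and 38.2 CPM (-1.18 ± 0.14, adjusted p = 0.000261). In all 3 genes each Eos+ library lay below each Eos- library. Other members, picked after their values were seen, had smaller decreases at high levels. Lat, the scaffold that gathers signalling proteins at the receptor, was 630.1, 527, 446 and 529 CPM against 926, 850.3, 687 and 879 CPM (-0.65 ± 0.06, adjusted p = 6.80e-05). Prkcq, protein kinase C theta, was 341 to 367 CPM against 525 to 542 CPM (-0.59 ± 0.05, adjusted p = 5.82e-05), and Rasgrp1, the exchange factor that activates Ras, was 362 to 504 CPM against 625 to 868 CPM (-0.74 ± 0.10, adjusted p = 0.000487). The receptor chains did not pass, with Cd3e at 801 to 891 CPM against 873 to 967 CPM (adjusted p = 0.125) and Cd3g at 685 to 938 CPM against 745 to 909 CPM (adjusted p = 0.706). Dok1, an adaptor that dampens receptor signals, was higher at 33.5, 26.7, 33.1 and 25.2 CPM against 18.1, 16.3, 12.7 and 16.5 CPM (0.90 ± 0.15, adjusted p = 0.00201).

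Phosphatases that set the length of kinase signals changed in both directions, with 16 higher and 14 lower of 58 tested (10 and 9 with no block, and 9 lower without Eos- library 2). Beside Dusp14, Ptpn13, a large tyrosine phosphatase, was higher at 46.8, 31.8, 34.2 and 20.9 CPM against 11.9, 2.22, 7.26 and 11.4 CPM (2.17 ± 0.39, adjusted p = 0.00293). Dusp10, which acts on the stress kinases p38 and JNK, was 47.2, 61.2, 75.8 and 108 CPM against 117, 144, 171 and 216 CPM (-1.18 ± 0.10, adjusted p = 4.61e-05), and Ptprf, a receptor phosphatase, was 8.89 to 16.0 CPM against 14.4 to 31.1 CPM (-0.87 ± 0.18, adjusted p = 0.00614). Of 61 ubiquitin ligases and SOCS genes, which mark proteins for removal or damp cytokine signals, 21 were higher and 10 lower. Rnf128, which encodes GRAIL, a ligase linked to T cell anergy, was 8.21, 6.63, 5.01 and 4.87 CPM against 0.955, 0.0855, 0.933 and 0.460 CPM (3.61 ± 0.65, adjusted p = 0.00293), and Rnf157 was 30.8 to 56.5 CPM against 12.6 to 21.1 CPM (1.46 ± 0.29, adjusted p = 0.0049). Nedd4l was 16.6 to 32.2 CPM against 44.7 to 46.6 CPM (-0.80 ± 0.15, adjusted p = 0.00369) and Rnf167 357 to 451 CPM against 534 to 601 CPM (-0.48 ± 0.07, adjusted p = 0.000765). Rnf128 and Rnf157 were higher, Nedd4l and Rnf167 lower, and none of the 4 overlapped between the groups.

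**Figure D4:**
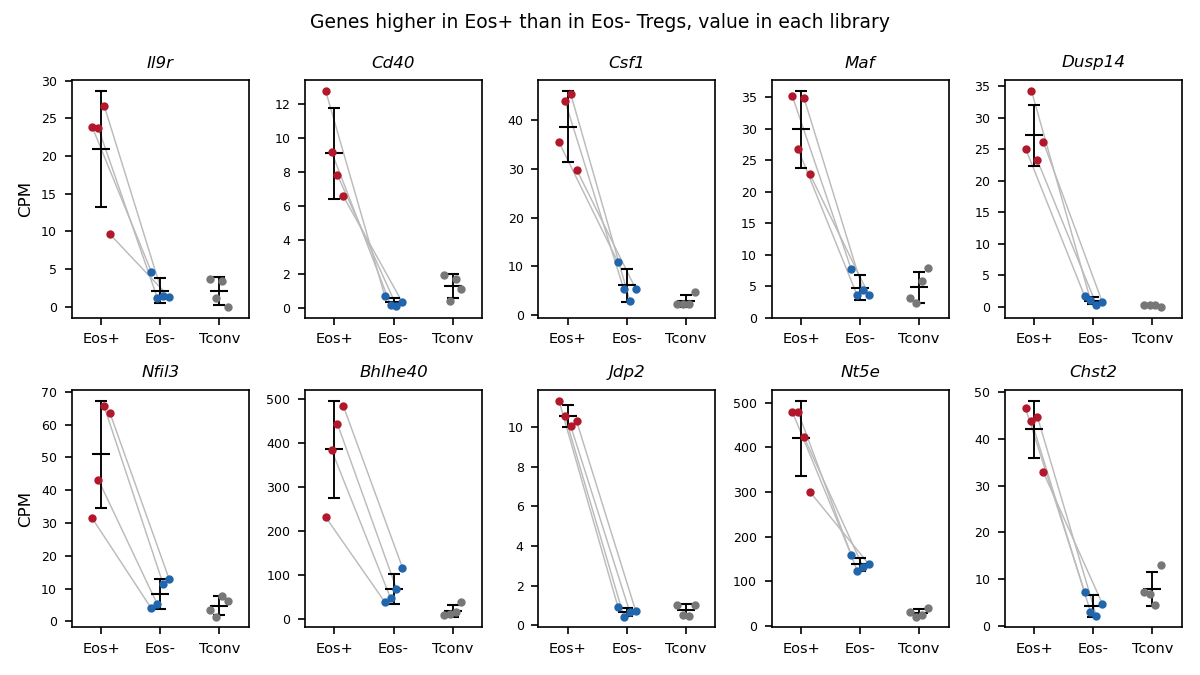
Level of 10 genes that were higher in Eos+ Tregs, in each library (vertical axes from 0, CPM; points, libraries; black bars, mean and SD of 4; grey lines join Treg libraries of the same Eos number). No Eos- library reaches the lowest Eos+ library in any panel; Tconv libraries lie in the range of Eos- Tregs or below for most.

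Transcription factors with large increases included repressors and bZIP factors. Bhlhe40 (chromosome 6, 108660629 to 108666925, plus strand), a repressor of tissue-resident and activated T cells that is also part of the clock, was 232, 384, 443 and 483 CPM against 39.6, 48.0, 69.5 and 117 CPM, 6.02-fold higher (2.59 ± 0.18, adjusted p = 1.72e-05). Nfil3, a bZIP repressor, was 31.4, 43.3, 65.5 and 63.4 CPM against 3.95, 5.24, 11.4 and 12.98 CPM (2.71 ± 0.27, adjusted p = 9.18e-05), and Maf, a bZIP factor of interleukin-10 producing T cells, was 35.2, 26.7, 34.9 and 22.8 CPM against 7.68, 3.53, 4.36 and 3.56 CPM (2.68 ± 0.36, adjusted p = 0.000582). Jdp2, which dimerises with Jun proteins, was 11.3, 10.6, 10.1 and 10.3 CPM against 0.914, 0.427, 0.657 and 0.718 CPM (4.01 ± 0.31, adjusted p = 2.48e-05). The 4 genes did not overlap between the groups. Of 32 bZIP and AP-1 factors tested 11 were higher and 5 lower (3 lower with no block), while the abundant members Fos, at 685, 1012, 1441 and 1077 CPM against 709, 845, 1161 and 1129.5 CPM, and Jund, at 445 to 575 CPM against 414 to 536 CPM, were not called. Of 67 zinc finger and homeobox factors 14 were higher and 9 lower (20.9% and 13.4%). Of 40 bHLH and HMG box factors 7 were higher and 5 lower (17.5% and 12.5%, and 3 lower with no block or without Eos- library 2 or 3). Among all protein-coding genes tested the shares were 15.5% and 10.8%, close to those of the bHLH and HMG box list. Zbtb32, a zinc finger repressor of activated lymphocytes, was 18.6, 21.3, 30.8 and 18.0 CPM against 3.12, 1.91, 1.94 and 2.47 CPM (3.26 ± 0.55, adjusted p = 0.00202). Prdm16, a zinc finger regulator of stem cells and brown fat, was 9.62 to 19.7 CPM against 2.79 to 6.40 CPM (1.59 ± 0.22, adjusted p = 0.000664), and Ahr, the receptor of dietary and environmental ligands, was 41.8 to 77.8 CPM against 17.1 to 31.1 CPM (1.24 ± 0.17, adjusted p = 0.000582). Clock genes were higher in 6 of 19 tested and lower in 2 (31.6% and 10.5%), the share lower being near that of all protein-coding genes. Nr1d1, the clock repressor REV-ERB alpha, was 15.6, 12.9, 21.1 and 11.8 CPM against 2.7001, 2.05, 1.59 and 0.976 CPM (3.10 ± 0.26, adjusted p = 3.85e-05), and Npas2, a partner of Bmal1, was 7.05, 5.91, 6.53 and 0.733 CPM against 0.872, 0.199, 0.311 and 0.258 CPM (3.58 ± 0.69, adjusted p = 0.00445). Npas2 in Eos+ library 4 lay within the Eos- range. Csnk1e, a kinase that acts on period proteins, was lower at 32.7 to 38.7 CPM against 53.3 to 68.6 CPM (-0.75 ± 0.10, adjusted p = 0.000651). Nr2f6, an orphan nuclear receptor, was 6.95 to 16.6 CPM against 1.25 to 3.36 CPM (2.30 ± 0.37, adjusted p = 0.00161), and of 28 nuclear receptors 9 were higher and 4 lower (2 lower with no block, without any one library other than Eos+ library 3 or 4, and without the libraries numbered 1).

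Other members of the transcription factor lists were lower. Bach2, a repressor that keeps T cells from effector fates, was 78.4, 94.9, 126 and 148 CPM against 186, 206, 225 and 216 CPM (-0.92 ± 0.13, adjusted p = 0.000689). Sox4, an HMG box factor of immature lymphocytes, was 45.6, 97.3, 76.5 and 63.6 CPM against 156, 228, 158 and 159.5 CPM (-1.33 ± 0.18, adjusted p = 0.00062). Id3, an inhibitor of E proteins, was 146, 134, 122 and 110.1 CPM against 221, 211, 195 and 162 CPM (-0.62 ± 0.09, adjusted p = 0.000704). Every Eos+ library was below every Eos- library in all 3. Klf7 and Sall2, zinc finger factors, were 13.6 to 34.8 CPM against 37.6 to 53.6 CPM (-1.08 ± 0.18, adjusted p = 0.00174) and 4.78 to 9.22 CPM against 12.9 to 17.0 CPM (-1.04 ± 0.18, adjusted p = 0.0024). The bZIP factor Atf7 was 23.7 to 34.2 CPM against 36.9 to 58.7 CPM (-0.66 ± 0.15, adjusted p = 0.00903). In Tconv, Sall2 was above both Treg groups, at 32.8 to 39.0 CPM. Gata1, the factor of red cells and platelets, was 14.9, 13.9, 24.2 and 23.5 CPM against 32.0, 30.5, 32.3 and 42.4 CPM (-0.87 ± 0.15, adjusted p = 0.00214), and its Tconv level was 12.9 to 15.1 CPM.

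Chromatin modifiers stood apart from most lists by the direction of their small changes. Of 75 tested, 24 were lower (32%) and 4 higher (5.33%), with a median log2 difference of -0.19. The number lower was 15 with no block, 13 without Eos- library 2, 14 without Eos+ library 2 and 15 without Eos+ library 3 or Eos- library 3 or 4, and 0 passed a test against a 1.5-fold change. Tet1, an enzyme that oxidises methylcytosine, was 5.67, 12.0, 16.2 and 16.2 CPM against 31.8, 30.1, 27.2 and 24.7 CPM (-1.23 ± 0.26, adjusted p = 0.00749), and its relative Tet3 was 36.6, 37.3, 60.1 and 70.6 CPM against 59.6, 89.9, 129 and 108 CPM (-0.92 ± 0.16, adjusted p = 0.00228). Kdm6b, a demethylase of histone H3 lysine 27, was 8.03 to 12.1 CPM against 11.3 to 22.2 CPM (-0.83 ± 0.18, adjusted p = 0.00861). Tet1 did not overlap between the groups, and in Tet3 and Kdm6b all 4 pairs were lower. Dnmt3a, a DNA methyltransferase, and Chd7, a nucleosome remodeller, both picked after their values were seen, were 107 to 159 CPM against 153 to 193 CPM (-0.41 ± 0.08, adjusted p = 0.00508) and 40.2 to 49.7 CPM against 58.3 to 68.8 CPM (-0.53 ± 0.12, adjusted p = 0.00983). Against this direction, Hdac9 (chromosome 12, 34047580 to 34917095, minus strand), a class IIa histone deacetylase, was 35.3, 73.7, 58.4 and 53.8 CPM against 2.62, 3.13, 8.54 and 3.33 CPM, 13.6-fold higher (3.76 ± 0.36, adjusted p = 7.49e-05). Cbx7, a Polycomb reader, was 216 to 277 CPM against 123 to 189 CPM (0.75 ± 0.10, adjusted p = 0.000627). The 4 higher members fell to 2 without Eos+ library 1 or 2 or Eos- library 2 or 4.

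Gimap genes encode GTPases that support survival of lymphocytes and lie together on chromosome 6. Of the 8 members, all tested, 6 were lower and 0 higher, and the summed level was 3142 to 3516 CPM in Eos+ Tregs and 4946 to 5724 CPM in Eos- Tregs. Gimap4 (chromosome 6, 48684549 to 48692060, plus strand) was 537, 429, 506 and 546 CPM against 1178, 1154, 1162 and 1228 CPM, 2.35-fold lower (-1.23 ± 0.06, adjusted p = 3.70e-06). Gimap6 was 623, 698, 639 and 692 CPM against 1011, 1155, 1160.1 and 1213 CPM (-0.77 ± 0.06, adjusted p = 3.66e-05) and Gimap7 (chromosome 6, 48718621 to 48724636, plus strand) was 133, 86.9, 99.2 and 122 CPM against 225, 179, 198.99 and 254 CPM (-0.97 ± 0.09, adjusted p = 6.42e-05). In each the Eos+ libraries lay below all Eos- libraries. Gimap7 in Tconv was 67.6 to 107 CPM, near its Eos+ level, while Gimap4 in Tconv was 969 to 1163 CPM, near its Eos- level. The members not called were Gimap1, at 365 to 402 CPM against 397 to 457 CPM, and Gimap5, at 97.2 to 116 CPM against 101 to 140.2 CPM (adjusted p = 0.0849 and 0.16). Gimap1, which shares exon positions with Gimap1os, had an adjusted p of 0.0392 without the libraries numbered 1, 0.028 without Eos- library 1 and 0.0435 with DESeq2. The RefSeq start windows (GRCm38.p6) of Gimap4 and Gimap7 are shown because both genes fell and each window holds 1 TCF and LEF motif, CTTTGA, and 1 RUNX motif, TGTGGT, on either strand. Capitals mark them: in Gimap4, at chr6:48684328-48684627 (plus strand), the first at position 26 and the second at -145, and in Gimap7, at chr6:48718371-48718670 (plus strand), the first at position 43 and the second at -79.
Gimap4: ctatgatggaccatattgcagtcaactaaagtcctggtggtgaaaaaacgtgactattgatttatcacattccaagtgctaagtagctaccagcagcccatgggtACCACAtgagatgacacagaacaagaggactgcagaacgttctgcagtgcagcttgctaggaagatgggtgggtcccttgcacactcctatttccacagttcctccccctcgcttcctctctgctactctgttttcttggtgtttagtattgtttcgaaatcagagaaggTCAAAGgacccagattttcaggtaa
Gimap7: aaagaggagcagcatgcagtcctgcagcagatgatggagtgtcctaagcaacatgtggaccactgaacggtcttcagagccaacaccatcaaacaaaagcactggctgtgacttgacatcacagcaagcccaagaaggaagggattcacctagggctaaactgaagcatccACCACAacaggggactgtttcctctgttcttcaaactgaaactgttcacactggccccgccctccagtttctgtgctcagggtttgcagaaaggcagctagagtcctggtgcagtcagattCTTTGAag
The TCF and LEF motif was in 12.3% of all 10375 windows and in 10.7% of those of lower genes (95% Wilson interval 9.0% to 12.6%). The RUNX motif was in 13.2% of all windows and in 10.1% of those of lower genes (8.44% to 11.9%). Genes called lower thus held the RUNX motif less often than all genes, unlike the 2 windows printed. Among the 181 genes lower by more than 2-fold the shares were 12.7% (8.62% to 18.3%) for TCF and LEF and 8.84% (5.51% to 13.9%) for RUNX.

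**Figure D5:**
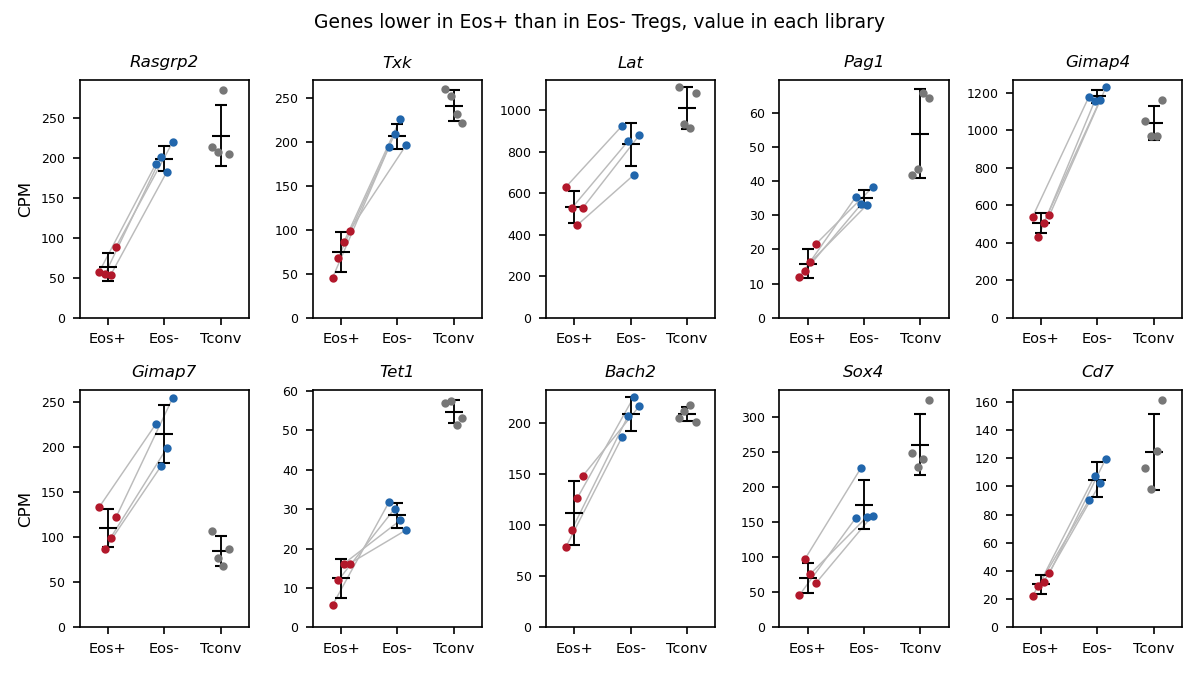
Level of 10 genes that were lower in Eos+ Tregs, in each library (vertical axes from 0, CPM; points, libraries; black bars, mean and SD of 4; grey lines join Treg libraries of the same Eos number). All Eos+ libraries lie below all Eos- libraries in each panel; Tconv lies near or above Eos- Tregs except for Gimap7.

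Among other surface genes, Cd7, a receptor of immature and naive T cells, was 22.4, 29.1, 32.3 and 38.5 CPM against 90.2, 107, 102 and 119.7 CPM, 3.47-fold lower (-1.80 ± 0.11, adjusted p = 6.91e-06). Ly6a, which encodes Sca-1, was 130.3, 84.9, 138 and 147 CPM against 62.7, 27.8, 37.5 and 61.2 CPM (1.45 ± 0.15, adjusted p = 0.000106), and Sh2d1a, the SAP adaptor of SLAM receptors, was 181, 134, 89.2 and 119 CPM against 77.8, 70.4, 58.9 and 60.2 CPM (0.94 ± 0.10, adjusted p = 0.000187). Both were higher in every Eos+ library than in any Eos- library. Of the 30 tested SLAM, Ly6 and Ms4a genes 7 were higher and 9 lower. For 20 genes of thymic egress and recirculation 5 were higher and 7 lower (4 lower with no block or without Eos- library 2). S1pr1, the receptor that draws T cells out of the thymus, was 241, 370.2, 419.9 and 340.3 CPM against 647, 703, 765 and 737 CPM (-1.08 ± 0.10, adjusted p = 6.92e-05), and Klf2, which drives S1pr1, was 168, 210.4, 367 and 437 CPM against 403, 438, 628 and 785 CPM (-0.98 ± 0.12, adjusted p = 0.000343). Klf2 overlapped between the groups but was lower in all 4 pairs. Il7r, the interleukin-7 receptor, was 478, 279, 238 and 249.9 CPM against 234, 76.7, 59.7 and 96.4 CPM (1.54 ± 0.22, adjusted p = 0.000819), and Cxcr3, a receptor of interferon-induced chemokines, was 111, 33.4, 57.8 and 59.8 CPM against 36.3, 5.87, 9.47 and 13.9 CPM (2.15 ± 0.33, adjusted p = 0.00111).

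Of 63 glycosyltransferases and sulfotransferases tested, 18 were higher and 12 lower (28.6% and 19%, beside 15.5% and 10.8% of all protein-coding genes). The 18 fell to 11 without Eos+ library 3, Eos- library 2 or Eos- library 3, and the 12 to 7 without the libraries numbered 1. Chst2, which sulfates selectin ligands, was 46.5, 43.8, 44.7 and 32.9 CPM against 7.27, 3.02, 2.07 and 4.77 CPM, 10.9-fold higher (3.44 ± 0.35, adjusted p = 0.00011). Galnt10, an enzyme of the same reaction as Galnt14, was lower at 126, 124, 201 and 156 CPM against 390.3, 302, 367 and 342 CPM (-1.22 ± 0.11, adjusted p = 6.63e-05). St3gal6, a sialyltransferase, was lower at 3.53 to 6.48 CPM against 11.8 to 20.6 CPM (-1.61 ± 0.18, adjusted p = 0.00016). Of 83 enzymes of fatty acids, phospholipids and eicosanoids 24 were higher and 8 lower (28.9% and 9.64%, and 15 higher without Eos- library 3). The share lower was near that of all protein-coding genes. Alox8, a lipoxygenase, was 9.15, 7.75, 7.38 and 10.0 CPM against 1.87, 0.0570, 1.69 and 0.345 CPM (3.72 ± 0.78, adjusted p = 0.00685). Its difference was 3.03 without Eos+ library 4, 3.13 without Eos- library 2 and 3.13 with no block. Elovl6, which lengthens fatty acids, was 5.86 to 16.3 CPM against 20.8 to 30.2 CPM (-1.01 ± 0.24, adjusted p = 0.0125), and Pik3ip1, an inhibitor of PI3 kinase, was 206, 139.9, 125 and 135 CPM against 322, 253, 256 and 216 CPM (-0.80 ± 0.08, adjusted p = 0.000134).

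Of 82 solute carriers tested 22 were higher and 10 lower (26.8% and 12.2%, and 6 lower with no block). Slc15a3, a transporter of peptides and histidine in endosomes, was 2.55 to 9.97 CPM against 0.0287 to 1.58 CPM (3.71 ± 0.73, adjusted p = 0.00507). Slc25a23, a mitochondrial ATP-Mg carrier, was 15.8, 15.3, 18.4 and 16.5 CPM against 34.5, 41.5, 40.6 and 26.9 CPM (-1.11 ± 0.13, adjusted p = 0.000219), and Slc26a6, an anion exchanger, 11.5 to 15.6 CPM against 19.4 to 29.1 CPM (-0.90 ± 0.15, adjusted p = 0.00221). Of 46 redox, iron and metallothionein genes 19 were higher and 5 lower (41.3% and 10.9%, and 1 lower with no block). In both lists the share lower was near the 10.8% of all protein-coding genes tested. Ncf4, a subunit of the phagocyte NADPH oxidase, was 135, 125, 111 and 103 CPM against 41.2, 25.4, 31.5 and 37.1 CPM, 3.58-fold higher (1.84 ± 0.18, adjusted p = 7.78e-05), and Cyp4v3, a cytochrome P450 that acts on fatty acids, was 17.6 to 25.7 CPM against 4.56 to 12.2 CPM (1.57 ± 0.21, adjusted p = 0.000502). The groups did not overlap in any of these 5 genes.

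Of 61 proteases and protease inhibitors 25 were higher and 6 lower (41% and 9.84%). The share lower was near the 10.8% of all protein-coding genes tested. With no block the counts were 16 and 3, and 16 were higher without Eos- library 3. Prss12, a secreted serine protease, was 8.53, 11.2, 4.81 and 3.87 CPM against 1.12, 0.0570, 0.346 and 0.144 CPM (4.44 ± 0.70, adjusted p = 0.00141, 5.28 without Eos- library 1 and 3.83 without Eos- library 2). Plaur, the urokinase receptor, was lower at 3.29, 2.87, 2.57 and 3.31 CPM against 13.5, 7.01, 7.85 and 8.59 CPM (-1.59 ± 0.22, adjusted p = 0.000718). Of 43 matrix genes and lectins 14 were higher and 6 lower (8 higher without Eos+ library 2 or 3 and 9 without Eos- library 2). Spock2, a proteoglycan, was 10.8, 15.1, 21.5 and 10.9 CPM against 0.582, 0.826, 1.07 and 1.64 CPM (3.81 ± 0.54, adjusted p = 0.000776), and Lgals4, a galectin, was 19.4 to 23.9 CPM against 31.3 to 37.5 CPM (-0.61 ± 0.13, adjusted p = 0.00735). Among genes of the cytoskeleton, Myo3b, an unconventional myosin, was 39.5, 35.5, 46.8 and 40.3 CPM against 4.15, 0.997, 1.28 and 4.28 CPM, 18.9-fold higher (4.24 ± 0.45, adjusted p = 0.000135), and Gsn, which severs actin filaments, was 77.2, 71.0, 95.1 and 57.0 CPM against 232, 197.7, 164 and 119.8 CPM (-1.24 ± 0.15, adjusted p = 0.000268). Of 49 neuronal, vesicle and secretory granule genes 15 were higher and 4 lower. The 15 fell to 6 without Eos+ library 2, to 8 without Eos+ library 1 and to 9 without Eos- library 2, 3 or 4 or without the libraries numbered 1. Stx11, a syntaxin needed for granule release by cytotoxic cells, was 106, 168, 147 and 110.4 CPM against 16.4, 17.8, 22.0 and 28.0 CPM (2.66 ± 0.19, adjusted p = 1.72e-05), and Vamp1, a synaptobrevin, was lower at 20.5, 16.5, 27.1 and 26.5 CPM against 37.5, 41.1, 61.6 and 54.9 CPM (-1.10 ± 0.10, adjusted p = 6.42e-05). Apart from these counts, each of the 8 genes named here separated the groups without overlap. They were picked as called members with large changes, and 69.7% of all called genes did not overlap.

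Markers of other cell types were read in the same contrast. Of 14 tested B cell and plasma cell markers 8 were higher and 0 lower (4 higher with no block, 5 without Eos- library 2 and 13 with DESeq2). Their summed level was 1436 to 2025 CPM in Eos+ Tregs and 177.8 to 562.7 CPM in Eos- Tregs. Most of it was Ighm, the constant region of immunoglobulin M, at 1330 to 1656 CPM against 172 to 443 CPM. Cd79b, a chain of the B cell receptor, was 49.5, 46.4, 33.0 and 25.8 CPM against 11.3, 3.02, 2.94 and 4.65 CPM (2.97 ± 0.31, adjusted p = 0.000133), and Ighd was 11.5 to 19.7 CPM against 0.346 to 2.37 CPM (4.33 ± 0.41, adjusted p = 7.00e-05). Pax5, a defining factor of B cells, was at most 0.376 CPM in any Treg library. Of 18 dendritic cell and macrophage markers 4 were higher and 0 lower (7 and 1 with limma-voom, and 1 lower without Eos- library 3). Cd74, the invariant chain of MHC class II, was 816, 489, 372 and 353 CPM against 373, 94.7, 81.5 and 99.9 CPM (1.86 ± 0.25, adjusted p = 0.000526), and Zbtb46 was 15.5, 34.4, 29.0 and 22.6 CPM against 2.53, 1.60, 3.80 and 5.17 CPM (2.93 ± 0.36, adjusted p = 0.000341). Itgax and Clec9a were at most 1.32 and 0.94 CPM, but the median log2 difference of the list was 1.57. Lyz2 was 8.81 to 70.5 CPM against 0.588 to 40.6 CPM. Xcr1 was 1.75 to 5.96 CPM against 0.171 to 0.831 CPM, and C1qb 1.21 to 21.6 CPM against 0.104 to 8.68 CPM. Members with lower ranges in Eos+ Tregs included Itgam and Siglech. They were 0 to 2.42 CPM against 1.87 to 4.36 CPM and 0 to 1.07 CPM against 0 to 13.6 CPM. H2-Ab1, an MHC class II chain, was 214, 112, 58.3 and 44.9 CPM against 143, 12.3, 3.91 and 15.8 CPM and was not called (adjusted p = 0.0586). It was called without Eos- library 1 (adjusted p = 0.0245) and with all libraries numbered 1 left out (adjusted p = 0.0392), as well as with DESeq2, limma-voom, the 8 Treg libraries alone or no filter (adjusted p = 0.0288 to 0.0354). The part of B cells and antigen-presenting cells in the differences of genes they share, such as Cd40, was not tested.

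Of 7 tested markers of thymic epithelium and stroma 2 were higher (1 without Eos+ library 2, 3 or 4 or Eos- library 1 or 2) and 1 lower, with Epcam at 22.4 to 36.3 CPM against 10.1 to 15.1 CPM (1.26 ± 0.18, adjusted p = 0.00074) and Pecam1 at 96.7 to 160.2 CPM against 217 to 327 CPM (-0.99 ± 0.09, adjusted p = 5.29e-05). Krt5, Krt14 and Foxn1 were at most 0.316 CPM in any Treg library. Aire was 0.675 to 2.47 CPM against 0 to 0.0691 CPM, and Krt8 0.258 to 1.10 CPM against 0 to 0.726 CPM. Col1a1 went the other way, at 0 to 0.402 CPM against 0 to 1.08 CPM. Of 11 markers of CD8, NK and cytotoxic cells 2 were higher and 0 lower, with a median log2 difference of -0.35. The 9 not called included Cd8b1, a CD8 chain, at 78.0, 26.0, 17.9 and 15.5 CPM against 106, 57.9, 23.2 and 20.6 CPM, below 0 in all 4 pairs (-0.57 ± 0.23, adjusted p = 0.102; adjusted p = 0.028 with the 8 Treg libraries alone and 0.0411 with DESeq2, which called it lower), and Prf1, which encodes perforin, at 1.72 to 8.98 CPM against 4.51 to 12.5 CPM. Nkg7, a granule membrane protein, was 145, 108, 119 and 159.7 CPM against 72.6, 33.7, 34.0 and 53.2 CPM (1.51 ± 0.22, adjusted p = 0.000903), and Ccl5, a chemokine, was 28.6 to 47.0 CPM against 1.57 to 4.78 CPM (3.82 ± 0.38, adjusted p = 9.83e-05), while Ncr1 was at most 0.176 CPM in any Treg library. Of 12 markers of gamma-delta, NKT and innate lymphoid cells 4 were higher and 1 lower (2 higher with no block, without Eos+ library 3 or without Eos- library 1, 2 or 3). Of 5 erythroid and granulocyte markers 0 were called (3 higher without Eos+ library 1). Of 12 markers of double-positive thymocytes 1 was higher and 0 lower (0 higher with no block, 2 without Eos+ library 2 or 4, and 2 higher and 2 lower with DESeq2). Rag1, a recombinase that marks immature thymocytes, was 28.0, 6.14, 1.17 and 1.496 CPM against 35.6, 15.6, 0 and 0.0574 CPM and was not called (adjusted p = 0.728). It was highest in library 1 of both groups. Of 6 Treg markers 4 were higher (2 with no block), including Ikzf2, which encodes Helios, at 465, 579, 555 and 739.9 CPM against 262, 406, 458 and 398 CPM (0.63 ± 0.11, adjusted p = 0.00212), and Tnfrsf4, which encodes OX40, at 1259 to 1395 CPM against 825 to 1125 CPM (0.59 ± 0.10, adjusted p = 0.00203). Of 6 markers of conventional T cells 4 were lower and 1, Il7r, higher. Themis, a protein of thymocyte selection, was 84.6, 58.9, 53.0 and 56.8 CPM against 159, 162, 118 and 96.6 CPM (-1.06 ± 0.13, adjusted p = 0.000333).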

How the data were processed

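RNA-seq of 12 thymus libraries (4 of each of 3 populations) was used. Per the labels' protocols, libraries were made from 1 ng total RNA with the SMARTer Ultra Low Input and Nextera XT kits, which do not mark strand. The authors deposited expected counts per gene, made with cutadapt 1.18, STAR 2.7.0f and RSEM 1.3.1 on mm10, per the submitters' processing notes. Here the expected counts were rounded and tested with edgeR 4.0.16 (R 4.3.3): filterByExpr, TMM factors, the quasi-likelihood F-test with Eos number as a block and all 12 libraries in 1 fit (6 residual degrees of freedom), and Benjamini-Hochberg adjustment at 0.05. The filter left 15361 of 55450 genes.

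The pairing by Eos number was set beforehand. Deviations of Eos+ and Eos- libraries of the same Eos number from their group means correlated in all 4 pairs (r = 0.32, 0.14, 0.17 and 0.21). Between libraries of unlike numbers r ran from -0.226 to 0.070. Alternatives were the fit with no block, the 8 Treg libraries alone, DESeq2 1.42.0, limma 3.58.1 with voom, other scaling factors, no filter, a test against a 1.5-fold change, and leaving out each Treg library or all libraries numbered 1.

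Members, lists and tests were chosen with earlier results of these data known. Genes were named by rule: the 15 largest called changes in each direction with no overlap and a mean of at least 10 CPM, the markers of the populations, and up to 3 called members per list and direction with at least 5 CPM, or uncalled members with at least 50 CPM. A part of the genes and lists so named is described, some items are not reported here, and Lat, Prkcq, Rasgrp1, Dnmt3a, Chd7, Axl, Penk, Capg, Hbb-bs and Rag1 were added after their values were seen. Start windows came from the RefSeq table of GRCm38.p6, which matched 10375 of 15350 symbols tested.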

Additional observations from a re-analysis of the deposited data

Results flagged for a closer look

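In 314 groups of 4 libraries (157 named genes in each Treg population), 22 had a highest or lowest library whose gap to the nearest other exceeded Dixon's 95% critical value. Chance flags about 1 in 20 groups. In Eos+ library 1, Tnfrsf4 was 1259 CPM against 1376 to 1395 CPM and Ifngr2 was 60.2 CPM against 80.3 to 84.7 CPM in the other 3 libraries of its group. In the same library, Pde2a was 61.4 CPM against 94.9 to 103 CPM and Ctse was 412 CPM against 16.6 to 24.9 CPM. In Eos+ library 2, Acvrl1 was 0.804 CPM against 5.66 to 7.45 CPM and Enpp4 was 11.3 CPM against 14.5 to 14.7 CPM in the other 3 libraries of its group. In the same library, Cyp4v3 was 17.6 CPM against 24.5 to 25.7 CPM. In Eos+ library 3, Ampd1 was 2.89 CPM against 1.41 to 1.44 CPM in the other 3 libraries of its group. In Eos+ library 4, Il9r was 9.62 CPM against 23.7 to 26.7 CPM and Vegfc was 3.61 CPM against 7.00 to 7.87 CPM in the other 3 libraries of its group. In the same library, Rasgrp2 was 89.1 CPM against 53.3 to 57.7 CPM and Npas2 was 0.733 CPM against 5.91 to 7.05 CPM. In the same library, Chst2 was 32.9 CPM against 43.8 to 46.5 CPM. In Eos- library 1, Foxp3 was 53.3 CPM against 653 to 862 CPM and Il9r was 4.65 CPM against 1.23 to 1.42 CPM in the other 3 libraries of its group. In the same library, Cd74 was 373 CPM against 81.5 to 99.9 CPM and Ctse was 421 CPM against 30.4 to 34.2 CPM. In Eos- library 2, Vegfc was 0.142 CPM against 0 CPM in each of the others and Sox4 was 228 CPM against 156 to 159.5 CPM in the other 3 libraries of its group. In Eos- library 4, Tnfrsf4 was 1125 CPM against 825 to 849 CPM and Ptger3 was 26.7 CPM against 14.045 to 15.658 CPM in the other 3 libraries of its group. In the same library, Slc26a6 was 19.4 CPM against 29.0 to 29.1 CPM. Of the 22, 8 were in the libraries numbered 1.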

How the results depend on the processing

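The number of genes higher in Eos+ Tregs ran from 1405 to 1869 when 1 Treg library was left out, and the number lower from 981 to 1396, against 2012 and 1486. The lowest number lower, 981, was without Eos- library 2. A test against a 1.5-fold change called 748 higher and 192 lower. With no replicate block 1509 were higher and 991 lower, and 2446 of the 3498 calls (69.9%) were also called. With the pairing kept, exact two-sided sign flips of the 4 pairs gave p = 0.125, the smallest they can give, for Ikzf4 (0.88 on the log2 scale) and Ccr6 (4.04). DESeq2 called 2548 and 1876, limma-voom 2332 and 1666, upper-quartile factors 1928 and 1612 and no filter 1968 and 1236. No called gene turned sign under any fit across genes, and the median log2 difference of all genes moved by -0.0182 to 0.00835. Among 157 genes named, Ctse lost its call with no block, with limma-voom and without Eos+ library 2, 3 or 4 or Eos- library 2 or 4. Hbb-bs was called without Eos+ library 1 (adjusted p = 0.0385). Under the 1.5-fold test 35 named genes lost their call. With 4 libraries a group, differences under that size in genes of a few CPM are the least certain.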

Other observations

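Genes outside the groups above, chosen after their values were seen, held some of the most abundant increases. Axl (chromosome 7, 25757273 to 25788705, minus strand), a receptor kinase that recognises Gas6 on dying cells, was 199.98, 249, 245 and 168 CPM against 19.5, 4.87, 6.67 and 12.7 CPM, 21.6-fold higher in Eos+ Tregs (4.43 ± 0.36, adjusted p = 3.04e-05), with 7.43 to 12.2 CPM in Tconv. Penk, which encodes the precursor of enkephalin opioid peptides, was 765, 787, 583 and 639 CPM against 123, 96.1, 77.3 and 157 CPM, 6.42-fold higher (2.68 ± 0.23, adjusted p = 3.85e-05), with 4.72 to 14.6 CPM in Tconv. Capg, a protein that caps actin filaments, was 816, 875, 868 and 686 CPM against 301, 191, 228 and 274 CPM (1.72 ± 0.17, adjusted p = 8.22e-05). In all 3 the lowest Eos+ library was above the highest Eos- library. Krt83, a hair keratin among the 15 largest increases, and Tubb6, a tubulin, were 10.9 to 25.0 CPM against 0 to 1.91 CPM and 6.43 to 12.0 CPM against 0.706 to 1.58 CPM. The Krt83 difference was 5.03 ± 0.94, adjusted p = 0.00364, and 6.24 without Eos- library 1. That of Tubb6 was 3.26 ± 0.38, adjusted p = 0.000234. Myo1d, an unconventional myosin, was 4.90 to 13.2 CPM against 0.370 to 1.45 CPM (3.32 ± 0.33, adjusted p = 9.83e-05).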
